A study of Homo sapiens with 43 samples.

Results

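Peaks of enhanced crosslinking and immunoprecipitation (eCLIP) were examined in 7 human genes whose messenger RNAs (mRNAs) are among the longest coding transcripts of the cell: HUWE1, DYNC1H1, UBR4, HERC2, MYCBP2, BIRC6 and AHNAK. The members were named as genes, with earlier results of these data known, and no measured value enters the rule. A peak was taken as belonging to a gene when it overlapped the gene's window by at least 1 nt on the gene's strand, in the human build hg19. In the 25 peak lists together, 5646 of 1430241 called peaks met this rule, and all 7 genes held called peaks. A stretch of the HUWE1 window, chrX:53582950-53584500, was left out by the rule.

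The cells were HEK293T, an established human embryonic kidney line, crosslinked by ultraviolet light. An antibody against HNRNPC, FMR1, RBFOX2, LIN28 or DGCR8 was used in 5 libraries, called native here and wt in the labels. In 6 further libraries, called tagged here, the protein carried a tag integrated at its own gene by CRISPR/Cas9. FMR1 and DGCR8 carried FLAG, and LIN28, RBFOX2 and each of the HNRNPC isoforms 1 and 2 carried V5. The remaining 14 libraries were named FLAG-only or V5-only without an RNA-binding protein and were cut from 7 gel ranges of 75 kDa between 25 and 250 kDa, so that neighbouring ranges overlapped. The labels do not say whether the cells of these tag-only libraries carried a tag, whether a tagged line was 1 clone, which LIN28 paralog was profiled, or whether libraries came from separate cultures. Each protein and tag state had 1 library, so values of a single protein have no replicate error and no test.

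As background, HUWE1, UBR4, HERC2 and MYCBP2 encode very large ubiquitin ligases. HUWE1 and HERC2 belong to the HECT class, UBR4 recognises N-terminal degradation signals, and MYCBP2 acts in axon development. BIRC6 is an inhibitor of apoptosis that also carries ubiquitin-conjugating activity, DYNC1H1 is the heavy chain of the motor cytoplasmic dynein, and AHNAK is a giant scaffold protein whose coding sequence lies almost wholly in a single exon. FMR1, the protein missing in fragile X syndrome, binds polyribosomes and is known for associating with the coding sequences of long mRNAs. LIN28 binds microRNA precursors and many mRNAs, RBFOX2 and HNRNPC bind nuclear pre-mRNA, and DGCR8 works with the nuclease DROSHA to cut primary microRNA transcripts.

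The windows in hg19 were chrX:53559063-53713673 on the minus strand for HUWE1, chr14:102430865-102517135 on the plus strand for DYNC1H1, chr1:19401000-19536770 on the minus strand for UBR4 and chr15:28356183-28567313 on the minus strand for HERC2. Those of MYCBP2, BIRC6 and AHNAK were chr13:77618792-77901177 on the minus strand, chr2:32582096-32843965 on the plus strand and chr11:62201016-62314332 on the minus strand. Their lengths ran from 86.3 kb in DYNC1H1 to 282.4 kb in MYCBP2. In GENCODE release 29, a GRCh38 annotation used here for lengths alone, the mRNAs had 14796 nt and 83 exons in HUWE1, 20003 nt and 78 exons in DYNC1H1, 15906 nt and 106 exons in UBR4, and 15337 nt and 93 exons in HERC2. MYCBP2 had 14736 nt and 84 exons, BIRC6 15703 nt and 74 exons, and AHNAK 18787 nt and 5 exons. The longest AHNAK exon, of 18170 nt, made up 96.7% of its mRNA, against 2.46% for the longest exon of UBR4. The annotation also names 11 pseudogenes after HERC2, so reads could be split between HERC2 and near-identical copies and its values are uncertain. Whether a peak lay in an exon or an intron is not given here, because the gene models are of another build than the peaks.

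A peak was called significant when the authors' −log10 p and the authors' log2 fold over the size-matched input were both at least 3, which for the fold means 8-fold. Over the 25 libraries, 1294 of the 5646 called peaks of the 7 genes were significant. FMR1 accounted for 675 of them in its 2 libraries, or 52.2%, and the 14 tag-only libraries for 482. HNRNPC, RBFOX2 and DGCR8 together gave 36 in 7 libraries. These counts are not corrected for the unequal lists. FMR1 FLAG had the most significant peaks of all lists, 17354, FMR1 native had 3072, and the largest tag-only number was 11119, in FLAG-only at 125 to 200 kDa. The share of each library is therefore given below. Library lists ranged in size from 25723 to 100860 called peaks. Read depth is unknown, because no read totals were used, and how far the counts follow depth or the RNA level of a gene was not tested.

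**Figure D1:**
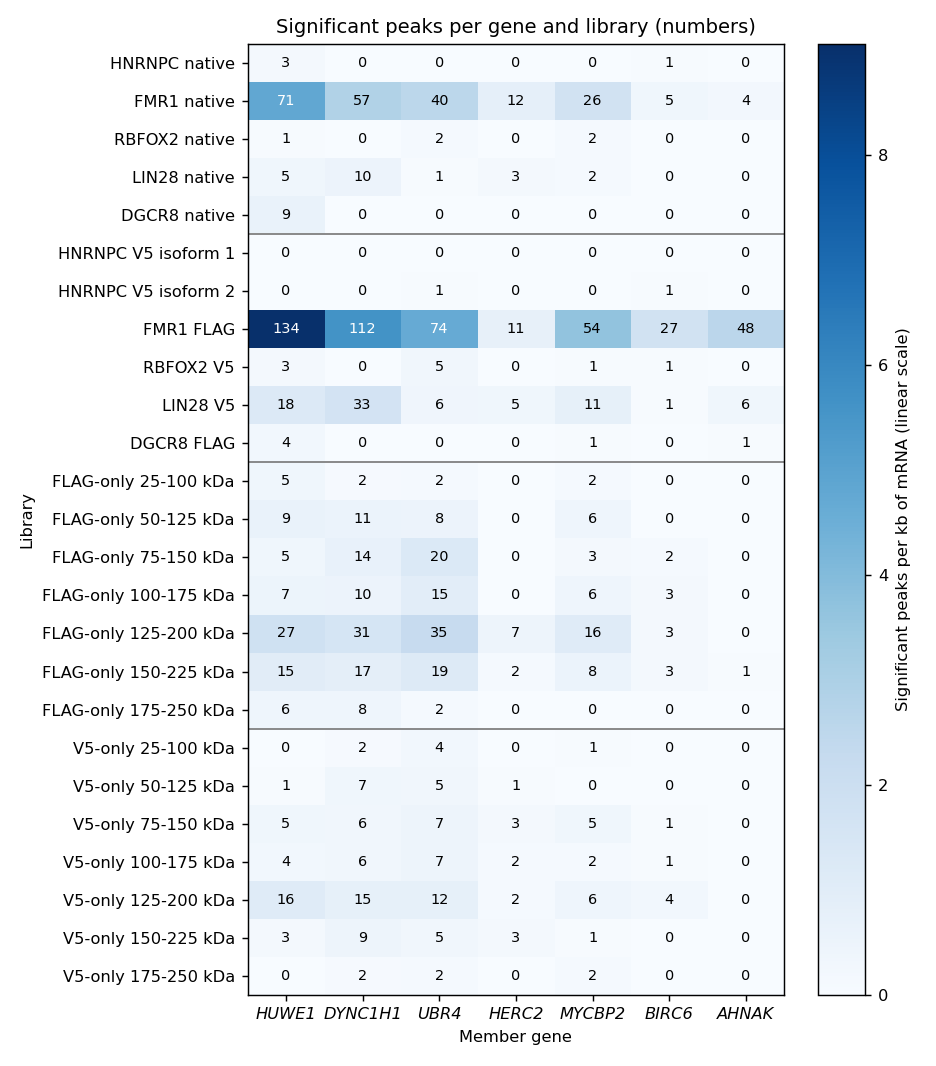
Number of significant peaks in each member gene (columns) and library (rows), printed in each cell, with the colour giving the number per kb of mRNA on a linear scale. FMR1 FLAG, with 134 peaks in HUWE1 and 112 in DYNC1H1, and FMR1 native, with 71 and 57, are the darkest rows, while AHNAK holds 48 peaks in FMR1 FLAG and at most 1 in any tag-only library.

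FMR1 had the most significant peaks in the genes. In the FMR1 native library 215 of 476 called peaks of the 7 genes were significant, or 45.2% (95% Wilson interval 40.8 to 49.7), where 5.23% of all called peaks of the library were. In FMR1 FLAG the share was 460 of 600 peaks, or 76.7% (73.1 to 79.9), against 17.2% over the whole list. All such intervals reflect only the counting of peaks, and peaks close together on a transcript are not independent. The 7 genes thus held 7.0% of all significant peaks of FMR1 native and 2.65% of those of FMR1 FLAG. Outside the genes, strand-specific windows of 100 kb with at least 20 called peaks had a median of 0% significant peaks in FMR1 native (564 windows) and 16.7% in FMR1 FLAG (1354 windows). Single windows outside the genes reached 57 significant peaks in FMR1 native and 111 in FMR1 FLAG. At least 10 were found in 69 of 9135 and 483 of 11206 such windows, so dense FMR1 peaks were not confined to the 7 genes.

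Among HUWE1, MYCBP2, UBR4 and HERC2, the highest numbers were those of HUWE1. HUWE1 had 71 significant peaks among 97 called in FMR1 native and 134 among 144 in FMR1 FLAG, which is 73.2% (63.6 to 81.0) and 93.1% (87.7 to 96.2). MYCBP2 followed in share, with 26 of 42 in FMR1 native, or 61.9% (46.8 to 75.0), and 54 of 63 in FMR1 FLAG, or 85.7% (75.0 to 92.3). UBR4 had a smaller share, with 40 of 118 in FMR1 native, or 33.9% (26.0 to 42.8), and 74 of 117 in FMR1 FLAG, or 63.2% (54.2 to 71.4). HERC2 stood lowest of these genes, with 12 of 63, or 19.0% (11.2 to 30.4), and 11 of 50, or 22.0% (12.8 to 35.2). The intervals of HUWE1 and HERC2 did not overlap in either library.

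The shares of DYNC1H1, BIRC6 and AHNAK also spread widely. DYNC1H1, the dynein heavy chain, had 57 significant peaks of 87 called in FMR1 native, or 65.5% (55.1 to 74.7), and 112 of 118 in FMR1 FLAG, or 94.9% (89.3 to 97.6). Its intervals overlapped those of HUWE1 in both libraries, which is likewise no test between genes. BIRC6 had 5 of 36 in FMR1 native, or 13.9% (6.08 to 28.7), and 27 of 51 in FMR1 FLAG, or 52.9% (39.5 to 65.9). AHNAK had 4 of 33 in FMR1 native, or 12.1% (4.82 to 27.3), and 48 of 57 in FMR1 FLAG, or 84.2% (72.6 to 91.5). The AHNAK share was thus near that of BIRC6 in one FMR1 library and near that of MYCBP2 in the other.

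Per kb of mRNA, the significant FMR1 FLAG peaks numbered 9.06 in HUWE1, 5.6 in DYNC1H1, 4.65 in UBR4, 3.66 in MYCBP2, 2.55 in AHNAK, 1.72 in BIRC6 and 0.717 in HERC2. In FMR1 native the same density was 4.80 in HUWE1, 2.85 in DYNC1H1, 2.51 in UBR4, 1.76 in MYCBP2, 0.782 in HERC2, 0.318 in BIRC6 and 0.213 in AHNAK. These densities count adjacent called segments one by one. With peaks within 50 nt joined to 1 site, FMR1 FLAG had 5.2 sites per kb in HUWE1, 3.90 in UBR4, 3.85 in DYNC1H1, 3.05 in MYCBP2, 2.29 in AHNAK, 1.59 in BIRC6 and 0.587 in HERC2, which places UBR4 level with DYNC1H1. In FMR1 native the joined sites numbered 3.51 per kb in HUWE1, 2.40 in DYNC1H1, 2.26 in UBR4, 1.70 in MYCBP2, 0.652 in HERC2, 0.318 in BIRC6 and 0.213 in AHNAK. HUWE1 was highest and MYCBP2 the fourth either way, and the low end of the FMR1 FLAG order rests on HERC2, whose values are uncertain.

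**Figure D2:**
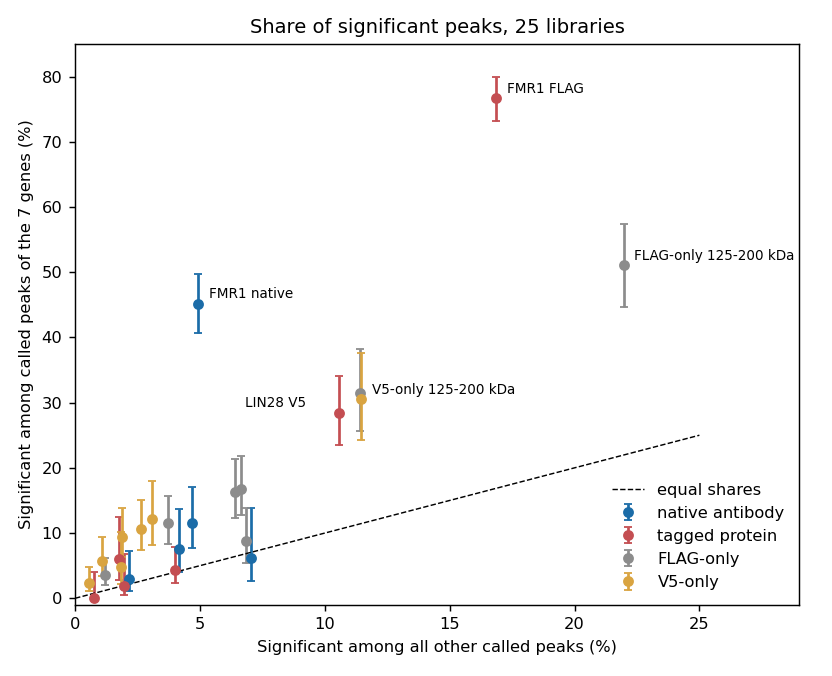
Share of called peaks that were significant in the 7 genes (y axis, %) against the share among all other called peaks (x axis, %), 1 point per library, with 95% Wilson intervals and a dashed line of equal shares. FMR1 native (45.2%) and FMR1 FLAG (76.7%) lie farthest above the line, and the 14 tag-only libraries also lie above it.

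FMR1 FLAG had more significant peaks than FMR1 native in 6 of the 7 genes, but the number in the 7 genes together rose less than elsewhere. The ratio of FMR1 FLAG to FMR1 native was 2.14 over the 7 genes and 5.91 over all other peaks of the same lists. It was 1.89 in HUWE1, 1.96 in DYNC1H1, 1.85 in UBR4, 2.08 in MYCBP2 and 0.917 in HERC2. BIRC6, with 5 peaks in FMR1 native and 27 in FMR1 FLAG, had a ratio of 5.4, and AHNAK, with 4 and 48, a ratio of 12. In FMR1 native 45.2% of the genes' called peaks were already significant, beside 4.91% of all other peaks. Whether these native shares bear on the ratios was not tested. With 1 library each, these ratios have no test.

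The sites of FMR1 were largely shared between antibodies in HUWE1 and DYNC1H1. Of the native peaks, 62 of 71 in HUWE1, or 87.3% (77.6 to 93.2), and 50 of 57 in DYNC1H1, or 87.7% (76.8 to 93.9), overlapped a significant FMR1 FLAG peak by at least 1 nt. The share was 16 of 26 in MYCBP2, 23 of 40 in UBR4, 4 of 12 in HERC2, 2 of 5 in BIRC6 and 3 of 4 in AHNAK. Over the 7 genes it was 160 of 215 peaks, or 74.4% (68.2 to 79.8), beside 66.7% (65.0 to 68.4) of all other native peaks. In the other direction 182 of 460 FMR1 FLAG peaks, or 39.6% (35.2 to 44.1), overlapped a native peak, beside 12.5% (12.0 to 13.0) elsewhere. The required overlap matters here, since 59.1% of native peaks matched when at least 50% of both peaks had to overlap and 92.1% lay within 1 kb of a FMR1 FLAG peak.

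Each FMR1 native peak was paired with the highest fold among the FMR1 FLAG peaks that overlapped it. An FMR1 FLAG peak could serve several native peaks. This pairing favours FMR1 FLAG, so the comparison of folds is not an even one. Peaks called in both FMR1 lists, whether significant or not, numbered 337 of the 476 native peaks. Their median log2 fold over input was 3.17 in the native library and 3.80 in FMR1 FLAG, and FMR1 FLAG was higher at 258 of the 337, or 76.6%. At 31119 other peaks called in both lists, paired in the same way, the medians were 1.55 and 2.22, and FMR1 FLAG was higher at 69.5%. The median difference was 0.64 in the genes and 0.57 at the other peaks, so the lean was nearly as large outside the genes. In HUWE1 it was higher at 72 of 87 peaks, in DYNC1H1 at 60 of 72 and in UBR4 at 63 of 80. In MYCBP2 it was higher at 22 of 29, in BIRC6 at 13 of 20 and in AHNAK at 13 of 19. In HERC2 it was higher at 15 of 30. As a description across peaks of 1 library pair, which are not independent, Pearson's r of the folds was 0.53 in HUWE1, 0.54 in MYCBP2, 0.31 in DYNC1H1, 0.23 in BIRC6 and AHNAK, 0.17 in UBR4 and −0.02 in HERC2.

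**Figure D3:**
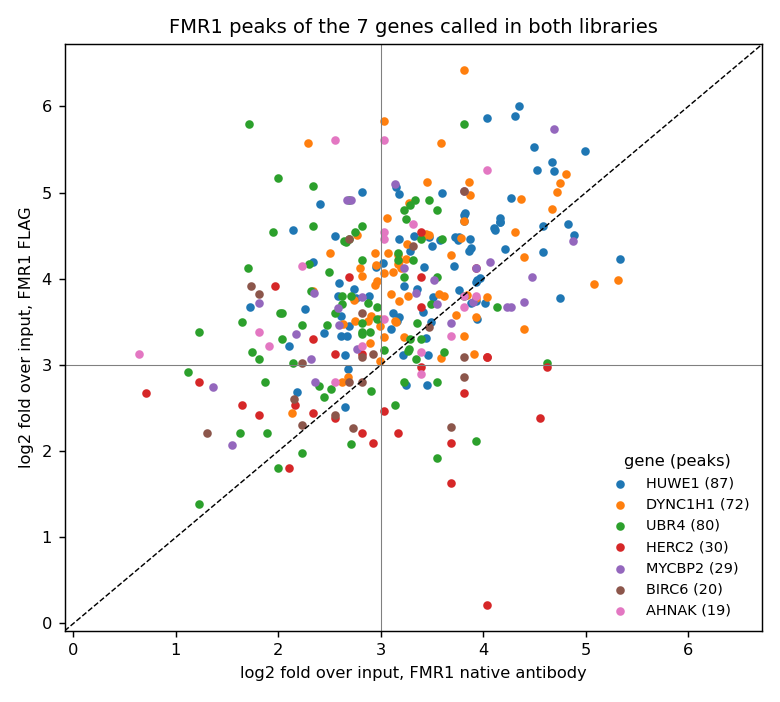
Log2 fold over input of the 337 peaks of the 7 genes called in both FMR1 libraries, native antibody on the x axis and FLAG on the y axis, coloured by gene, with the threshold of 3 as grey lines and equality dashed. The FLAG value is the highest among the FMR1 FLAG peaks overlapping the native peak, a pairing that favours FLAG. At 258 peaks (76.6%) the FLAG value is higher, beside 69.5% of all other peaks called in both lists, and the HERC2 peaks scatter about equal values.

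The strongest shared FMR1 site of each gene was the FMR1 FLAG peak of highest fold that overlapped a significant native peak. In DYNC1H1 it was chr14:102499471-102499503, with a log2 fold of 6.42 in FMR1 FLAG and 3.81 in FMR1 native. In HUWE1 it was chrX:53619367-53619430, with 6.01 and 4.35. In MYCBP2 it was chr13:77667303-77667332, with 5.74 and 4.69. In AHNAK it was chr11:62288226-62288287, with 5.26 and 4.03. By the way they were chosen, all sites named here had a log2 fold of at least 3 in both libraries. In UBR4 it was chr1:19464501-19464653, with 4.92 and 3.47, in BIRC6 chr2:32819097-32819117, with 4.39 and 3.31, and in HERC2 chr15:28422100-28422149, with 4.12 and 3.93. The DYNC1H1 site was also significant in 8 of the 14 tag-only libraries, those of UBR4 and MYCBP2 in 1 each, and those of HUWE1, HERC2, BIRC6 and AHNAK in none.

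Along the genes, FMR1 peaks of HUWE1 lay toward the 3′ end. Split into 5 equal lengths from the 5′ end, the HUWE1 window held 0, 2, 5, 29 and 35 significant FMR1 native peaks and 0, 9, 15, 49 and 61 FMR1 FLAG peaks. Of these, 95.8% in FMR1 native and 90.3% in FMR1 FLAG lay in the 50% of the window nearest the 3′ end. MYCBP2 had 80.8% and 74.1% there, DYNC1H1 70.2% and 64.3%, UBR4 70.0% and 58.1%, and HERC2 75.0% and 90.9%, the last from 12 and 11 peaks. BIRC6 had 3 of 5 native peaks there but 12 of 27 FMR1 FLAG peaks, or 44.4%, and AHNAK had none. The lean of HUWE1 was also present without a profiled protein, at 54 of 74 FLAG-only peaks, or 73.0%, and 27 of 29 V5-only peaks, or 93.1%, summed over the 7 libraries of each tag. DYNC1H1 had 38.7% of 93 FLAG-only and 78.7% of 47 V5-only peaks there, and UBR4 47.5% of 101 and 81.0% of 42. For MYCBP2 the shares were 43.9% of 41 and 47.1% of 17. HERC2 had 0 of 9 and 6 of 11 there, and BIRC6 1 of 11 and 5 of 6. The V5-only shares of DYNC1H1 and UBR4 were thus above those of FMR1, and the FLAG-only shares below. Distances are genomic, and the spacing of exons along a window was not taken into account. Because adjacent called segments are counted one by one, joining peaks within 50 nt gave 52 FMR1 native and 77 FMR1 FLAG sites in HUWE1 and 48 and 77 in DYNC1H1.

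In AHNAK the peaks lay in a small part of the window. All 48 significant FMR1 FLAG peaks lay between 10.4 and 30.7 kb from the 5′ end of the 113.3 kb window, which is chr11:62283623-62303972. This span of 20.4 kb covers 18.0% of the window, and it held 275 of the 303 called AHNAK peaks of all 25 libraries, or 90.8%, and 58 of 60 significant ones. Its length is close to the 18170 nt of the longest exon. The 4 FMR1 native peaks and the 6 LIN28 V5 peaks lay between 17.3 and 30.7 kb from the 5′ end.

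**Figure D4:**
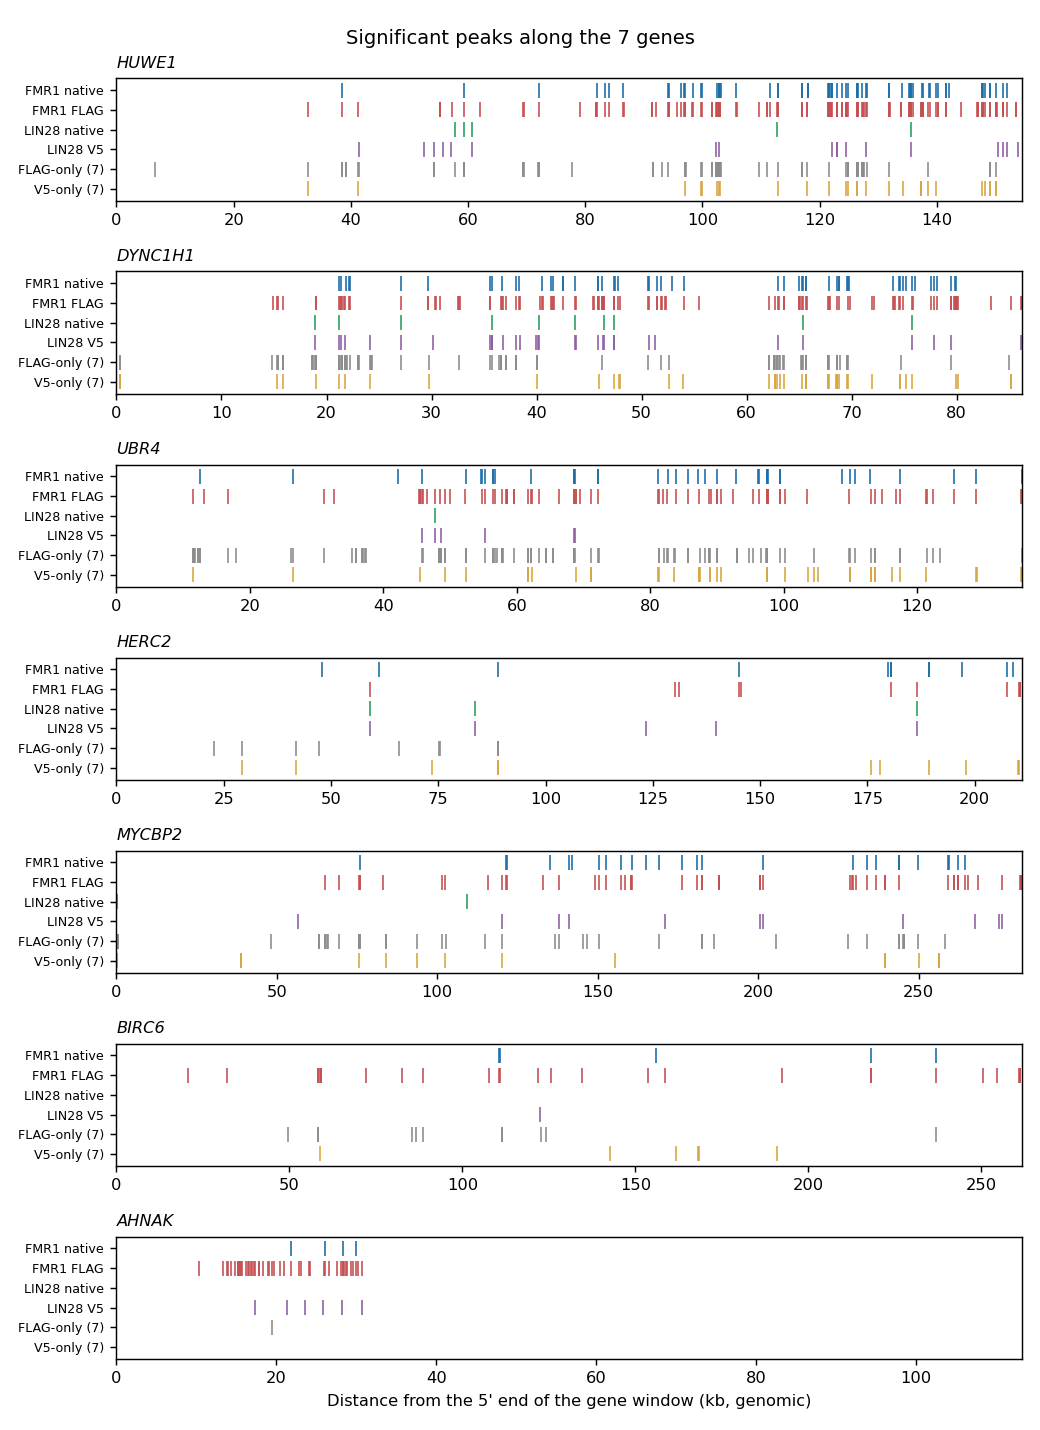
Position of every significant peak along the 7 gene windows (x axis, kb from the 5′ end of the window, genomic), with rows for the FMR1 and LIN28 libraries and for the 7 FLAG-only and 7 V5-only libraries together. HUWE1 peaks of FMR1 gather in the 3′ part, and those of AHNAK fall between 10.4 and 30.7 kb.

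LIN28 came next among the proteins. LIN28 native had 21 significant peaks of 181 called in the 7 genes, or 11.6% (7.71 to 17.1), against 4.73% over its list. LIN28 V5 had 80 of 281, or 28.5% (23.5 to 34.0), against 10.6%. These were 1.04% and 1.03% of each library's significant peaks, and the ratio of LIN28 V5 to LIN28 native was 3.81 in the genes and 3.85 elsewhere. The genes therefore took nearly the same share of both LIN28 lists.

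DYNC1H1 held more LIN28 peaks than any other of the 7 genes, with 10 of 21 in LIN28 native and 33 of 80 in LIN28 V5. HUWE1 followed with 5 and 18, and MYCBP2 with 2 and 11. HERC2 had 3 and 5, UBR4 1 and 6, and BIRC6 and AHNAK had none in LIN28 native and 1 and 6 in LIN28 V5. All 10 native peaks of DYNC1H1 and all 3 of HERC2 overlapped a LIN28 V5 peak, while 2 of 5 did in HUWE1 and 0 of 2 in MYCBP2. Over the 7 genes 16 of 21 native peaks overlapped, or 76.2% (54.9 to 89.4), beside 81.8% (80.1 to 83.5) of all others.

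The highest LIN28 fold of the 7 genes lay in DYNC1H1. In chr14:102466623-102466724 LIN28 V5 had a log2 fold of up to 7.55 and LIN28 native 4.98, while FMR1 native had 3.10 and FMR1 FLAG no significant peak. Farther downstream, chr14:102506606-102506709 was significant in all 4 libraries, with 5.47 in LIN28 native, 4.83 in LIN28 V5, 4.31 in FMR1 native and 4.54 in FMR1 FLAG. The former was also significant in 1 FLAG-only library, with 3.57, and the latter in no tag-only library. In HERC2 the highest native value was 4.91 at chr15:28483761-28483816.

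LIN28 and FMR1 peaks met often in these genes. Of the LIN28 V5 peaks, 39 of 80, or 48.8% (38.1 to 59.5), overlapped a significant FMR1 FLAG peak and 26 of 80, or 32.5% (23.2 to 43.4), an FMR1 native peak. Over all other LIN28 V5 peaks the shares were 12.9% (12.2 to 13.7) and 2.84% (2.50 to 3.24). By gene, LIN28 V5 peaks overlapping FMR1 FLAG were 20 of 33 in DYNC1H1, 10 of 18 in HUWE1, 4 of 6 in AHNAK and 2 of 6 in UBR4. They were 2 of 5 in HERC2, 1 of 11 in MYCBP2 and 0 of 1 in BIRC6. Conversely, 48 of 460 FMR1 FLAG peaks, or 10.4% (7.96 to 13.6), overlapped a LIN28 V5 peak, beside 5.85% elsewhere. Between the native libraries, 6 of 21 LIN28 peaks overlapped FMR1, or 28.6%, beside 3.80% elsewhere. From the FMR1 side it was 8 of 215, or 3.72% (1.90 to 7.17), beside 2.77% elsewhere. Merging all significant peaks gave 651 regions, of which 6 were significant in both FMR1 and both LIN28 libraries, 5 in DYNC1H1 and 1 in HUWE1. FMR1 peaks are dense in HUWE1 and DYNC1H1, and the part of that density in the overlap was not tested.

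The nuclear proteins had few sites in the genes. RBFOX2 native had 5 significant peaks, where 7.03% of its list passed, and RBFOX2 V5 had 10, where 4% passed. Both RBFOX2 libraries met only in UBR4, at 2 places. At chr1:19467095-19467165 the native log2 fold was 4.72 and the overlapping V5 peak had 4.0, and at chr1:19466521-19466581 they were 3.37 and 3.21. HNRNPC native had 4 significant peaks, 3 in HUWE1 and 1 in BIRC6, against 2.15% over its list. HNRNPC V5 had none for isoform 1, where 0.76% of the list passed, and for isoform 2, where 1.97% passed, 1 in UBR4 and 1 in BIRC6. In shares, RBFOX2 native with 6.25%, RBFOX2 V5 with 4.39%, HNRNPC native with 2.92% and isoform 2 with 1.94% of the genes' called peaks stayed near their lists.

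DGCR8 native had 9 significant peaks of 120 called in the 7 genes, or 7.5% (4.0 to 13.6), where 4.16% of its list passed. All 9 lay in HUWE1. Joined within 50 nt they formed 5 sites. The 9 peaks lay within chrX:53581958-53582908, between 42 and 952 nt from the stretch left out of the window, with log2 folds from 4.06 to 6.23. Without them, DGCR8 native had no significant peak in any of the 7 genes. DGCR8 FLAG had 6 of 100 called, a larger share than the 1.78% of its list that passed. Of these, 4 lay in HUWE1 and 1 each in MYCBP2 and AHNAK, and 2 of the 4 in HUWE1 lay in the same kilobase.

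The tag-only libraries had significant peaks in most of these genes. In the FLAG-only libraries the 7 genes held 11 peaks at 25 to 100 kDa, 34 at 50 to 125 kDa, 44 at 75 to 150 kDa, 41 at 100 to 175 kDa, 119 at 125 to 200 kDa, 65 at 150 to 225 kDa and 16 at 175 to 250 kDa. Over the whole lists 1.21%, 3.75%, 6.7%, 6.43%, 22.1%, 11.5% and 6.86% of called peaks passed, in the same order of ranges. In the 7 genes the shares were 3.49%, 11.6%, 16.8%, 16.3%, 51.1%, 31.6% and 8.79%. The range of 125 to 200 kDa stood highest in the genes and in the list alike.

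In the V5-only libraries the numbers were 7, 14, 27, 22, 55, 21 and 6 in the same order. Over the lists 0.555%, 1.1%, 2.69%, 1.92%, 11.5%, 3.1% and 1.86% passed, and in the genes 2.35%, 5.69%, 10.6%, 9.44%, 30.6%, 12.2% and 4.84%. The share was higher in the genes than over the list in all 14 libraries, but in FLAG-only at 175 to 250 kDa its interval (5.48 to 13.8) included the share of the list. Expressed as a share of each library's significant peaks, the genes held between 0.411% and 1.34% in FLAG-only and between 0.667% and 1.93% in V5-only.

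**Figure D5:**
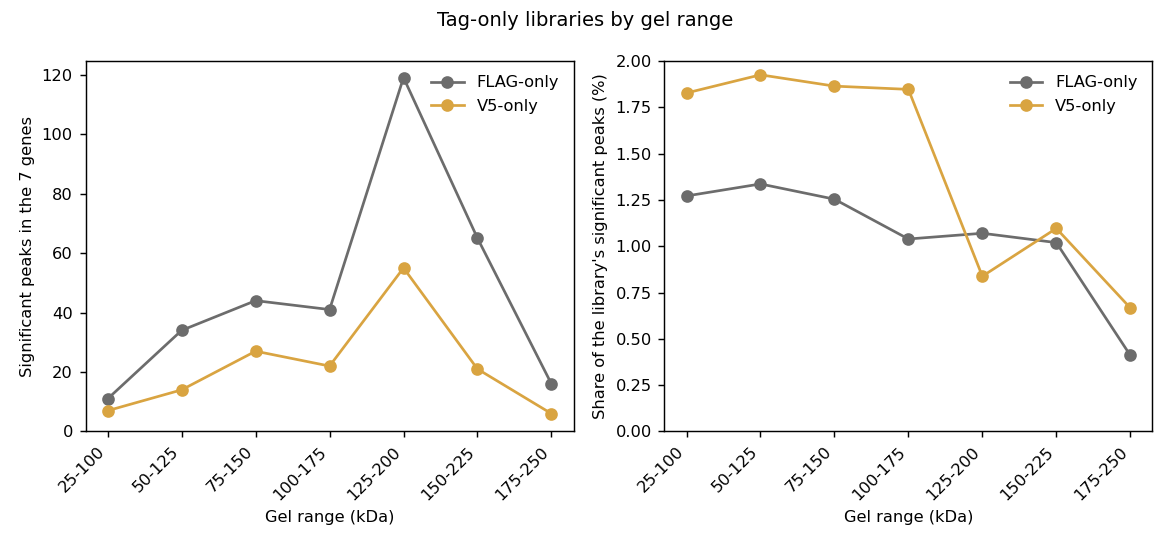
Significant peaks of the 7 genes by gel range (x axis, kDa) in FLAG-only and V5-only libraries, 1 library per point, as a number (left) and as a share of the library's significant peaks in % (right). The numbers peak at 125 to 200 kDa, with 119 and 55, whereas the shares do not.

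By gene, UBR4 and DYNC1H1 carried most tag-only peaks, 143 and 140 in all, and each had some in all 14 libraries. FLAG-only libraries had between 2 and 35 in UBR4, with a median of 15, and V5-only libraries between 2 and 12, with a median of 5. For DYNC1H1 the FLAG-only numbers ran from 2 to 31 with a median of 11, and the V5-only numbers from 2 to 15 with a median of 6. HUWE1 had 103 in 12 libraries, from 5 to 27 (median 7) in FLAG-only and from 0 to 16 (median 3) in V5-only. MYCBP2 had 58 in 12 libraries, from 0 to 16 (median 6) in FLAG-only and from 0 to 6 (median 2) in V5-only. HERC2 had 20 in 7 libraries, at most 7 in FLAG-only and 3 in V5-only, and BIRC6 17 in 7, at most 3 and 4. AHNAK had a single peak, in FLAG-only at 150 to 225 kDa, beside its 48 peaks in FMR1 FLAG. Taken by gel range, FLAG-only had more peaks than V5-only in 6 ranges and fewer in 0 for both HUWE1 and DYNC1H1. Neither gene passed after adjustment over all features (exact sign-flip p = 0.0312, adjusted p = 0.165). The share of all features reaching this unadjusted p is not given here, so the difference is not shown to be particular to these genes. The comparison was added after the data had been seen. The FLAG-only lists also held more significant peaks in all, so the next comparison is on shares.

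The FLAG-only libraries were set against the V5-only libraries over the 7 gel ranges, each pair sharing a range and its input. Differences per range were tested by exact sign-flip permutation (two-sided), with Benjamini-Hochberg adjustment over the 7 genes and all strand-specific windows of 100 kb with a significant peak in at least 5 of the 14 libraries. Of the library's significant peaks, DYNC1H1 held a mean of 0.295% in FLAG-only and 0.475% in V5-only, a difference of −0.18 ± 0.20 percentage points (SD, n = 7 ranges), with V5-only higher in 6 of 7 ranges (exact p = 0.0781, adjusted p = 0.404). UBR4 held 0.309% and 0.496%, with V5-only higher in 4 of 7 (exact p = 0.188, adjusted p = 0.536), and HUWE1 0.269% and 0.174%, with FLAG-only higher in 4 of 7 (exact p = 0.406, adjusted p = 0.761). HERC2 held 0.0135% and 0.1%, with V5-only higher in 4 ranges and FLAG-only in 1 (exact p = 0.125, adjusted p = 0.406). The differences of MYCBP2, BIRC6 and AHNAK were −0.024, −0.00098 and 0.0022 percentage points, with exact p-values of 0.812, 1 and 1.

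None of the 7 genes passed, and none of the 1669 features passed after adjustment, the smallest adjusted p being 0.332. At an unadjusted p under 0.05, 168 features, or 10.1%, were called and 0 of the 7 genes. The smallest p that 7 ranges allow is 0.0156. The median log2 fold of all called peaks in a gene, less the median of the library, gave the same: 0 of 7 genes and 0 of 1568 features passed after adjustment, and 345 features, or 22%, were called at an unadjusted p under 0.05. The largest differences of this measure were −0.18 ± 0.53 in BIRC6 and −0.16 ± 0.23 in HERC2, both within their spread over ranges. The ranges overlap, so these p-values measure only the spread between the libraries, which may be technical.

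The folds of the genes' called peaks, significant or not, lay above the library median in the tag-only libraries. Averaged over both tags, the gene's median log2 fold exceeded that of the library by 0.56 ± 0.06 in DYNC1H1 (SD, n = 7 ranges), 0.51 ± 0.26 in BIRC6, 0.48 ± 0.12 in UBR4, 0.46 ± 0.12 in HUWE1 and 0.46 ± 0.14 in MYCBP2. These 5 genes were above the library in 14 of 14 libraries (exact sign-flip p = 0.0156, the smallest possible, adjusted p = 0.0538). HERC2, at 0.39 ± 0.24, was above in 11 of 14 (exact p = 0.0312, adjusted p = 0.0807), and AHNAK, at 0.39 ± 0.42, in 11 of 14 (exact p = 0.0625, adjusted p = 0.126). No feature passed after adjustment, and 603 of 1568, or 38.5%, were higher at an unadjusted p under 0.05. The median over the 1561 windows was 0.18 and over the 7 genes 0.46. This test was added after the data had been seen.

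Tag-only peaks overlapped FMR1 FLAG peaks more often in the 7 genes together than elsewhere. In the FLAG-only libraries a median of 54.5% (range 41.5 to 62.5 over 7 libraries) of the genes' significant peaks overlapped a significant FMR1 FLAG peak, beside 20.6% (19.3 to 22.2) for the rest of these lists. In the V5-only libraries it was 66.7% (40.7 to 85.7) beside 19.0% (10.3 to 23.6). The ranges inside and outside the genes did not overlap for either tag. By gene this held unevenly: of the regions with a tag-only peak, 37 of 53 in HUWE1, 42 of 71 in DYNC1H1, 50 of 83 in UBR4 and the single one of AHNAK also had a significant FMR1 peak, against 13 of 45 in MYCBP2, 2 of 13 in HERC2 and 2 of 16 in BIRC6. In all, 135 of 282 such regions had none. FMR1 peaks are dense in HUWE1 and DYNC1H1, and how much of the coincidence follows from that density was not tested.

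Seen from the FMR1 side, 92 of 215 FMR1 native peaks of the genes, or 42.8% (36.4 to 49.5), and 159 of 460 FMR1 FLAG peaks, or 34.6% (30.4 to 39.0), lay at a place significant in at least 1 tag-only library. Elsewhere the shares were 37.5% (35.8 to 39.3) and 26.8% (26.2 to 27.5). In UBR4, 25 of 40 native and 46 of 74 FLAG peaks lay there, or 62.5% and 62.2%. In HUWE1 they were 30 of 71 and 51 of 134, and in DYNC1H1 29 of 57 and 46 of 112. In AHNAK 0 of 4 and 1 of 48 did, and in BIRC6 0 of 5 and 2 of 27. The 147 regions significant in both FMR1 libraries comprised 78 without any tag-only peak, 31 of them in HUWE1, 21 in DYNC1H1, 12 in MYCBP2, 6 in UBR4, 3 each in HERC2 and AHNAK and 2 in BIRC6.

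Tag-only sites recurred most in DYNC1H1. The region chr14:102499458-102499507 was significant in 8 of 14 tag-only libraries, 4 of each tag, with a log2 fold of 3.42 ± 0.34 (SD over the 8 libraries), beside 3.81 in FMR1 native and 6.42 in FMR1 FLAG. The most recurrent region of HUWE1, chrX:53611175-53611306, was significant in 5 tag-only libraries at 3.48 ± 0.44 and in FMR1 FLAG at 5.17. Those of UBR4, chr1:19439118-19439357, HERC2, chr15:28478291-28478363, and MYCBP2, chr13:77825291-77825488, were significant in 4 each, that of BIRC6, chr2:32640392-32640487, in 2 and that of AHNAK, chr11:62294793-62294866, in 1. Each of these 7 regions was also significant in at least 1 FMR1 library, although 135 of all 282 tag-only regions were not. Of the 282 regions with a tag-only peak, 2 reached 7 or more tag-only libraries, both in DYNC1H1. The same share outside the genes was not computed.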

How the data were processed

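eCLIP of HEK293T cells was analysed from 25 deposited peak lists. The authors gave each peak a −log10 p and a log2 fold of immunoprecipitation over size-matched input, per the file contents, and these values are the authors' own. Per the submitters' processing notes, cutadapt, STAR, GATK, Picard and SAMtools were used with hg19. Versions and the peak caller are not given in the sources used here. Lists were made per library and not on pooled libraries. The 18 input samples entered only through the authors' normalisation.

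Peaks were assigned to 7 windows by strand, filtered at a −log10 p and a log2 fold of at least 3, and compared by overlap of at least 1 nt. Shares carry 95% Wilson intervals. Features for testing were strand-specific windows of 100 kb, because no gene annotation of hg19 was used here. The sign-flip test was tested on simulated data. For each gene, the site of highest FMR1 FLAG fold matched in FMR1 native and the region recurring in most tag-only libraries were named. Members, lists and rules were chosen with earlier results of these data known. Alternatives comprised other thresholds, overlaps, joined peaks, unpaired tests and leaving out each range. Python 3.11.15, numpy 2.4.6, pandas 2.3.3, scipy 1.17.1 and matplotlib 3.10.9 were used.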

Additional observations from a re-analysis of the deposited data

Results flagged for a closer look

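In the left-out stretch chrX:53582950-53584500 of HUWE1, which the comparisons do not use, DGCR8 native had 7 significant peaks with a log2 fold of up to 7.39, DGCR8 FLAG had 3 and FMR1 FLAG had 2, against at most 1 in any tag-only library.

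Within the sets of 7 tag-only libraries, 9 of 46 sets held a library that stood apart from the rest by Dixon's criterion. The 7 libraries are different gel ranges and not replicates, many values are small counts, and the sets share peaks. The number expected by chance is therefore unknown, and the single AHNAK peak is flagged both as a number and as a share. In the V5-only library of 125 to 200 kDa the 7 genes held 55 significant peaks, with 27 in the next library, HUWE1 held 16, with 5 in the next, and BIRC6 held 4, with 1 in the next. In the FLAG-only library of 125 to 200 kDa HERC2 held 7 peaks, with 2 in the next. DYNC1H1 held 0.963% of the significant peaks of V5-only at 50 to 125 kDa, with 0.522% in the next library. The 7 genes held 0.411% of those of FLAG-only at 175 to 250 kDa, where the next lowest was 1.02%. AHNAK had 1 significant peak, 0.0157% of the library's, in FLAG-only at 150 to 225 kDa and 0 in the others. The called AHNAK peaks of V5-only at 75 to 150 kDa had a median log2 fold 1.49 above that of the library, with 0.45 in the next.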

How the results depend on the processing

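At a −log10 p of at least 5, LIN28 native kept 9 of 21 significant peaks in the 7 genes, and the medians of the FLAG-only and V5-only libraries fell from 41 and 21 to 20 and 8. With the fold threshold lowered to a log2 of 2, the medians were 104 and 63. The share of FMR1 native peaks overlapped by FMR1 FLAG was 74.4%, and 82.9% at the stricter threshold, 59.1% with 50% overlap and 92.1% within 1 kb. FMR1 peaks at tag-only sites ran from 31.2% (stricter) to 63.2% (looser) for the native antibody and from 25.7% to 49.2% for FLAG, and LIN28 V5 reached 38.2% at the looser threshold. FMR1 totals over the 7 genes stayed within 1.5 times the reported value under both thresholds and with joined peaks (180 native and 338 FLAG sites), but in HUWE1 joining took FMR1 FLAG from 134 peaks to 77 sites, and DGCR8 native fell from 9 to 5.

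No gene differed between FLAG-only and V5-only after adjustment under any alternative tried, with or without the replicate block (the pairing by gel range). For HERC2, for example, the exact p was 0.125 with the block and 0.0495 without it (adjusted p = 0.318). Directions were less stable. The FLAG-only minus V5-only share became 0.071 percentage points in UBR4 at the stricter threshold, and −0.11 in HUWE1 (exact p = 0.0469, adjusted p = 0.206) and 0.016 in MYCBP2 at the looser one. In nucleotides covered it was 0.0021 in MYCBP2. As plain numbers, an alternative chosen after seeing the data, the difference was 6.57 peaks in DYNC1H1, 8.43 in UBR4, 3.43 in MYCBP2 and 0.714 in BIRC6, the opposite direction to their shares, since the FLAG-only lists hold more significant peaks in all. Leaving out each range in turn gave −0.067 to 0.016 in MYCBP2 and −0.00899 to 0.0045 in BIRC6 for the share, and −0.071 to 0.082 in AHNAK and −0.092 to 0.042 in UBR4 for the fold. In the comparison with the library, means were also used in place of medians for both the gene and the library. Then 6 of the 7 genes lay above the library mean after adjustment, among 521 of 1568 features that passed in either direction. The cause was not tested.

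The precision is limited by 1 library per protein and tag state, by read depths that are unknown here, and by small counts in BIRC6, HERC2 and AHNAK in the native libraries.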
